A study of Mus musculus with 82 samples.

Results

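The genes followed here were 3 metallothioneins, Mt1, Mt2 and Mt3, and 7 target genes of the transcription factor NRF2, which were Hmox1, Slc7a11, Gclc, Gclm, Srxn1, Txnrd1 and Nqo1. They were chosen by name, and all 10 were found among the 48795 gene identifiers of the count table. The libraries came from mouse brain areas cut out by laser, from mice with a cortical stroke, mice with a white matter stroke or sham mice, which are called uninjured. From each area, RNA bound to ribosomes was immunoprecipitated (IP), which the submitters describe as enriched for astrocytes, and in some cohorts the cleared lysate before precipitation (input) was sequenced as well. The 82 libraries formed 18 groups. In both the cortex and the white matter, stroke zones 1, 2, 3, 4 and 5 were represented by 5 IP libraries apiece. A further cohort covered zones 1 to 3 as a single area, with 3 IP and 3 input libraries per region, and uninjured tissue gave 5 IP and 5 input libraries per region. All mice, uninjured ones included, were perfused with dilute paraformaldehyde before the brains were frozen and cut. The strain, the age, the cells in which ribosomes were tagged, the time after stroke and the distance of a zone from the lesion were not stated in these sources. The labels tie no library to an animal, so each p-value reflects the scatter of the libraries, which may be technical.

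Total counts per library ran from 2518604 to 28245109. After 6 genes known to collect reads of ribosomal RNA were set aside (mt-Rnr1, mt-Rnr2, Gm42418, CT010467.1, Gm23935 and Lars2), 389889 to 5708700 counts were left, and levels are given as counts per 1000000 of those (CPM). In 5 shallow libraries, which were cortex zone 1 replicate 1, white matter zone 1 replicates 1 and 5, zone 3 replicate 1 and zone 5 replicate 3, under 1000000 such counts or under 10000 genes were found. All 10 astrocyte markers were detected in every group. In uninjured cortex, 2 of the 10 astrocyte markers and 3 of 7 neuron markers passed the test as higher in IP. Of all genes, 25.3% were called there in either direction. The summed astrocyte markers were between 3939 and 7670 CPM in IP and between 1467 and 3309 CPM in input, without overlap. The summed neuron markers overlapped, between 8829 and 14668 CPM in IP and between 4234 and 14985 CPM in input. The cortex IP libraries thus also held much neuronal RNA.

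Metallothioneins are small, cysteine-rich proteins that bind zinc and copper and take up reactive oxygen. Zinc activates the transcription factor MTF1, which binds metal response elements in the promoters of Mt1 and Mt2, and in the brain these genes are known mainly from astrocytes, whereas Mt3 is known from neurons and astrocytes and does not follow zinc in the same way. NRF2, the product of Nfe2l2, is held by KEAP1 and broken down until oxidised or electrophilic compounds release it. It then binds antioxidant response elements, together with small MAF proteins, at genes for glutathione synthesis, heme breakdown and the repair of oxidised thiols.

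The promoter windows of Mt1, Mt2 and Srxn1 are printed with that of Mt3 for contrast. Mt1 and Mt2 fell along the cortex zones, and Srxn1 fell as well and also differed between cortex fractions. The windows show matches, within these bases only, to the elements through which MTF1 and NRF2 are known to act. They are the 250 bases before the RefSeq gene start (GRCm38.p6), on the gene's own strand. Capitals mark every match, on either strand, to the antioxidant response element core (ARE, TGACNNNGC or TGAGNNNGC) or to the metal response element core (MRE, TGCACNC or TGCGCNC).
Mt1, chr8:94178839-94179088, plus strand: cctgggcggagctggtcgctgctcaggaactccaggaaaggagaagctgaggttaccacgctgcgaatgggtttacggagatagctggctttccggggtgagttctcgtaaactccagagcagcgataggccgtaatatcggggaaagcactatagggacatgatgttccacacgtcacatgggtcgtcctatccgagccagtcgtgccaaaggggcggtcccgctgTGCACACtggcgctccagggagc
Mt2, chr8:94172368-94172617, plus strand: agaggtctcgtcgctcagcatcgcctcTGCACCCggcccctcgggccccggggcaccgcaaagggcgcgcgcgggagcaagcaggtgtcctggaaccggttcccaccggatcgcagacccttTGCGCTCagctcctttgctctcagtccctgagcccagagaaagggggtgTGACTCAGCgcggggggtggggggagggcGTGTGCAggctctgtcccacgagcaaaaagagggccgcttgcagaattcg
Mt3, chr8:94152357-94152606, plus strand: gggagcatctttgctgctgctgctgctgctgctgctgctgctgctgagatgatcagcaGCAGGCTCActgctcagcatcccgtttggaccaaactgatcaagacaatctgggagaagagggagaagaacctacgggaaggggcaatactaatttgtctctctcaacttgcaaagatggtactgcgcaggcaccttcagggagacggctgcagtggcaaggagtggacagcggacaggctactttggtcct
Srxn1, chr2:152105274-152105523, plus strand: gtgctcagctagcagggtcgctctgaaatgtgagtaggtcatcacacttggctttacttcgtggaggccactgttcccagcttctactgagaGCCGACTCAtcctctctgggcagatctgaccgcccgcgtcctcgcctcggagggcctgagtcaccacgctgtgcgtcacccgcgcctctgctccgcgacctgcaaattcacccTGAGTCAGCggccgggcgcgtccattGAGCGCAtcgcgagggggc

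The Mt2 window held 3 MRE cores and 1 ARE core, and the letters of the ARE core, TGACTCAGC, also hold the AP-1 motif TGACTCA. The Mt1 window held 1 MRE core, which began 23 bases before the start, and no ARE core. The annotated exons of Mt1 cover its whole span of 1246 bases. Its window covers only bases before the RefSeq start, and bases after it were not searched. The Mt3 window held 1 ARE core and no MRE core. Srxn1 had 2 ARE cores and 1 MRE core, and the core that began 45 bases before its start, TGAGTCAGC, again holds the AP-1 motif. Slc7a11 had 1 ARE core and Gclm 1 ARE core with 2 MRE cores. Nqo1 had neither in its window. Promoter entries were matched for 8 of the 10 members, which leaves out Hmox1 and Gclc. Over the 32851 windows of this length, 23% held an ARE core and 21.4% an MRE core, while 3.18% held 2 or more ARE cores and 5.17% held 2 or more MRE cores. A match is a description of the letters and not a tested binding site, and a window without a match does not show that the gene lacks the element.

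The 3 metallothionein genes stand in one row on chromosome 8 (GRCm38, GENCODE vM21), all on the plus strand. Mt3 lies at chr8:94152607-94154146, Mt2 follows after a gap of 18517 bases at chr8:94172664-94173568, and Mt1 after a further 5513 bases at chr8:94179082-94180327. Hmox1 (chr8:75093621-75100589) and Nqo1 (chr8:107388225-107403206) are on the same chromosome. Gclc lies at chr9:77754535-77794485, Gclm at chr3:122245557-122270732, Slc7a11 at chr3:49892526-50443614, Srxn1 at chr2:152105516-152111376 and Txnrd1 at chr10:82833951-82897712. All 10 are annotated as protein-coding.

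Mt2 shares its locus with the antisense gene Gm45774 (chr8:94170748-94173412, minus strand), which overlaps it by 749 bases and spans its promoter window. Over the 82 libraries Gm45774 had 34758 counts and Mt2 had 36751, and their log2 levels moved together with a Pearson r of 0.996, given as a description. In every group the Gm45774 counts came to between 79.8% and 99.4% of the Mt2 counts. The labels name a library kit that does not mark strand (Ovation RNA-Seq System, NuGEN), and how reads were counted is not stated, so reads of Mt2 and of Gm45774 cannot be told apart, and each Mt2 value below is that of the locus. No annotated gene overlaps Mt1.

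In stroke cortex, Mt1 and Mt2 had their highest means in zone 1 and fell with zone number. Over the 25 cortex zone libraries the slope of Mt1 was -0.32 ± 0.05 on the log2 scale per zone step (SE, edgeR quasi-likelihood test, adjusted p = 7.2e-06) and that of Mt2 was -0.38 ± 0.06 (adjusted p = 3.2e-06). Of 9 members tested for such a slope 6 were called at an adjusted p under 0.05, against a background of 19.6% of the 15148 genes tested; 5 of the 6 fell with zone number, where 13.7% of all genes did, and 1 rose, where 5.9% did. The median slope over the tested members was -0.16, and over all genes it was -0.02. Both metallothionein slopes kept their direction and call when any single library or any zone was left out. This comparison uses no uninjured library.

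Mt1 had 59.0, 209, 152, 157 and 117 CPM in the 5 zone 1 libraries. In zone 2 it had 92.1, 104, 100.1, 114 and 61.9 CPM, and in zone 3 112, 89.5, 72.6, 73.0 and 76.8 CPM. It had 72.0, 68.6, 55.3, 67.6 and 69.7 CPM in zone 4 and 77.1, 65.2, 43.7, 44.6 and 60.0 CPM in zone 5. In zone 1, 4 of the 5 libraries lay above every library of zones 2 to 5, and the exception was the shallow replicate 1. The group means were 139 ± 55.5 CPM in zone 1, 94.4 ± 19.9 in zone 2, 84.8 ± 16.8 in zone 3, 66.6 ± 6.55 in zone 4 and 58.1 ± 14.2 in zone 5 (SD, n = 5 each). All zone 3 libraries lay above all zone 4 libraries, and the other neighbouring zones overlapped.

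Mt2 had 113, 107, 127, 56.3 and 83.4 CPM in zone 1 and 97.8, 111, 105, 97.6 and 47.8 CPM in zone 2. It had 74.6, 63.0, 61.9, 48.7 and 51.3 CPM in zone 3. Zones 4 and 5 were lower, with 35.1, 32.4, 52.3, 26.4 and 59.6 CPM in zone 4 and 44.9, 29.98, 38.1, 42.4 and 40.1 CPM in zone 5. Zones 1 and 2 overlapped almost entirely, and zones 4 and 5 did too. The zone 5 libraries all lay below every zone 1, zone 2 and zone 3 library.

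**Figure D1:**
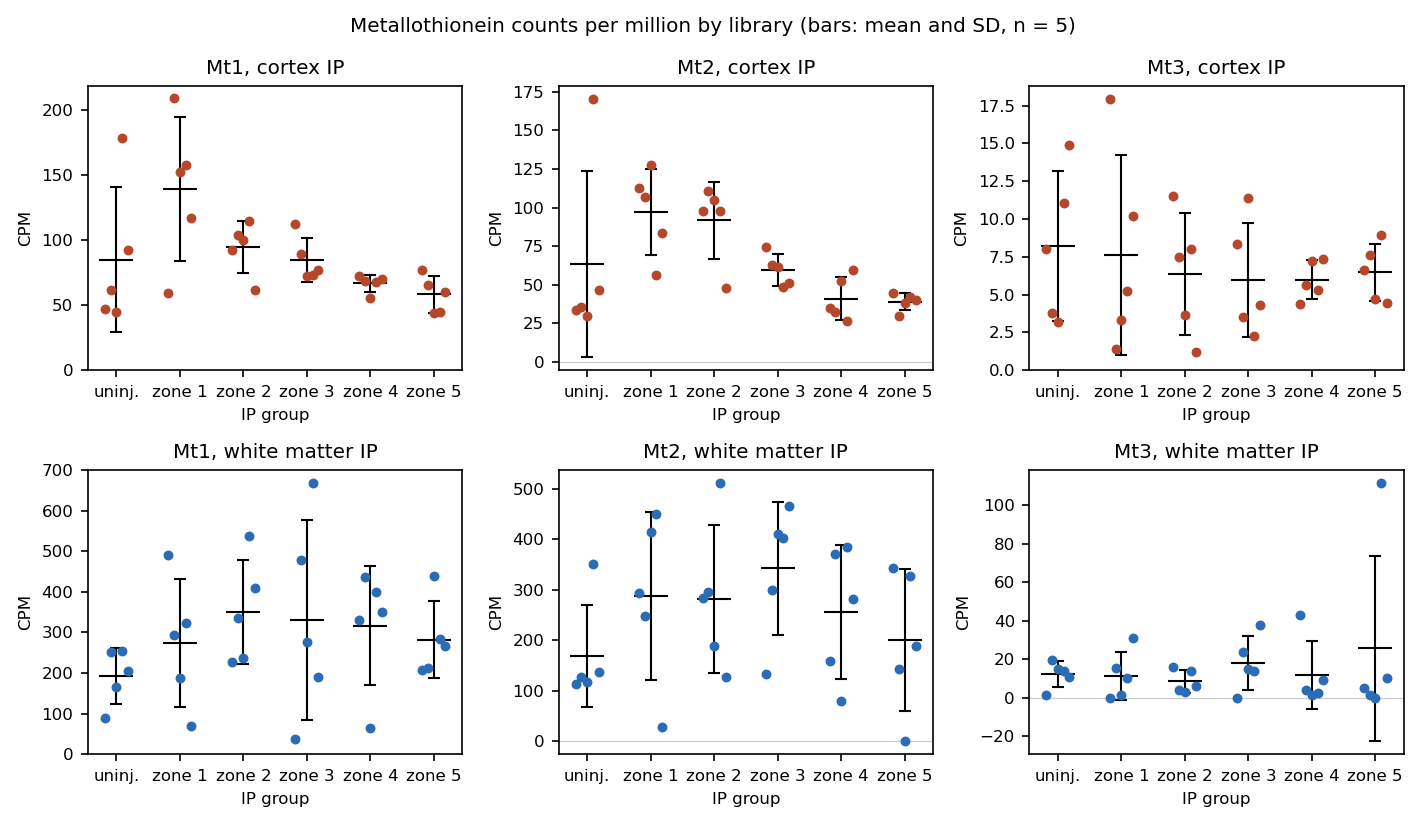
CPM of Mt1, Mt2 and Mt3 (y axis, linear, each panel with its own range) in uninjured IP and in IP zones 1 to 5 (x axis), with cortex in the upper and white matter in the lower row; each point is a library, and bars give the mean and SD of 5 libraries. In cortex Mt1 and Mt2 decline from zone 1 to zone 5 and 1 uninjured library stands at 178 and 170.4 CPM, while in white matter the zones overlap.

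Set against uninjured cortex, neither gene passed the test in any zone, and the uninjured libraries themselves spread widely. The 5 zone comparisons share these uninjured libraries. Uninjured IP had 47.0, 61.5, 44.2, 178 and 92.0 CPM of Mt1 and 34.0, 36.0, 29.7, 170.4 and 46.8 CPM of Mt2, and replicate 4 was the high library for both. In that library the summed astrocyte markers were 7670 CPM, against 3939 to 4887 CPM in the other 4, and its neuron markers were also the highest of the group, at 14668 CPM. Of its counts, 16.3% lay outside the 6 genes set aside, against 5.93% to 9.498% in the other 4. That share was 15.5% to 29.9% in zone 1, above those 4 in every library, and 6.27% to 16.5% in zone 2. The part of the markers and of this share in the differences between zones and uninjured tissue was not tested. Zone 1 minus uninjured was 0.71 ± 0.36 for Mt1 (log2, SE, edgeR adjusted p = 0.35) and 0.55 ± 0.41 for Mt2 (adjusted p = 0.57). Zone 2 minus uninjured was 0.17 ± 0.30 for Mt1 (adjusted p = 0.86) and 0.52 ± 0.51 for Mt2 (adjusted p = 0.72).

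Without uninjured replicate 4, the Mt2 difference was called in zone 1, at 1.33 ± 0.32 (edgeR adjusted p = 0.021), and in zone 2, at 1.34 ± 0.25 (adjusted p = 0.00059), whereas Mt1 was not called in either zone (1.16, adjusted p = 0.063 in zone 1, and 0.65, adjusted p = 0.11 in zone 2). Farther out, zone 5 minus uninjured was -0.62 ± 0.30 for Mt1 (adjusted p = 0.86) and -0.81 ± 0.45 for Mt2 (adjusted p = 0.88), and without that library the difference was -0.15 for Mt1 and 0.02 for Mt2. The slope over zones does not show on its own whether zone 1 lay above or zone 5 below the uninjured level.

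Mt3 was scarce in cortex. In white matter IP its zone means ran from 8.56 CPM in zone 2 to 25.5 CPM in zone 5, where the highest library had 111 CPM. Cortex IP held 17.95, 1.40, 3.33, 5.22 and 10.2 CPM in zone 1, 6.61, 7.63, 4.72, 8.93 and 4.46 CPM in zone 5 and 8.0, 3.79, 3.16, 11.1 and 14.9 CPM in uninjured tissue. Its libraries overlapped in all of these groups. The slope over cortex zones was -0.02 ± 0.13 (log2 per zone step, SE, edgeR adjusted p = 0.95), and its sign changed under 7 of 35 alternatives. Mt3 thus gave no call alongside its neighbours Mt1 and Mt2.

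Hmox1, whose product heme oxygenase 1 opens the heme ring, was the member that differed most clearly from uninjured tissue in the cortex. It had 30.8, 10.9, 9.31, 4.99 and 16.1 CPM in zone 1, 29.8, 11.9, 6.89, 21.8 and 6.61 CPM in zone 2 and 0, 1.89, 2.53, 1.48 and 0 CPM in uninjured IP. No library of zones 1 or 2 overlapped with an uninjured one. Uninjured replicates 1 and 5 held no Hmox1 count, which at their depths allows up to 3.00 and 1.49 CPM, and the other 3 held 12 counts in all.

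Hmox1 rose by 3.64 ± 0.65 in zone 2 (log2, SE, edgeR adjusted p = 0.00044), and this call held under every alternative tried. In zone 1 it rose by 3.37 ± 0.88 (adjusted p = 0.028), and this call was lost when zone 1 replicate 1, a shallow library with 12 Hmox1 counts, was left out (2.99, adjusted p = 0.071). It was also lost without any single uninjured library, with an adjusted p of 0.090 without replicate 1, 0.071 without replicate 2, 0.051 without replicate 3, 0.067 without replicate 4 and 0.090 without replicate 5. Hmox1 was the sole member called of 9 tested in each of these zones, where 5.3% of 12526 genes were called in zone 1 and 3.64% of 11713 genes in zone 2. The median log2 difference of the tested members was 0.55 in zone 1, against 0.07 over all genes, and 0.05 in zone 2, against -0.01.

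From zone 3 outward Hmox1 was low again. It had 0.347, 3.25, 2.49, 5.32 and 2.65 CPM in zone 3, 1.32, 4.08, 0.278, 4.70 and 1.47 CPM in zone 4 and 1.10, 1.31, 1.18, 0 and 3.72 CPM in zone 5, and it did not pass the filter on low counts in these zones against uninjured tissue. Its zone libraries fell into a higher pair of groups, zones 1 and 2, and a lower set, zones 3 to 5, which did not overlap apart from zone 1 replicate 4 at 4.99 CPM, below the 5.32 CPM of zone 3 replicate 4. The slope over cortex zones was -0.92 ± 0.17 (log2 per zone step, SE, edgeR adjusted p = 8.6e-05), the steepest of the 9 members tested.

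Markers of microglia and macrophages, cells known to express Hmox1, had higher sums in cortex zones 1 and 2 as well. The summed CPM of their 10 markers was 1205 to 2514 in cortex zone 1, 412 to 844 in zone 2, 157 to 343 in zone 3, 123 to 195 in zone 4, 104 to 161 in zone 5 and 85.9 to 227 in uninjured IP. All 10 were higher in zone 1 than in uninjured IP, 9 of 10 were higher in zone 2, and all 10 fell with zone number. Their sums in zones 1 and 2 did not overlap. Hmox1 averaged 14.4 ± 9.98 CPM in zone 1 and 15.4 ± 10.1 CPM in zone 2 (SD, n = 5 each). The 6 oligodendrocyte markers fell with zone number as well, with a sum of 4768 to 8025 CPM in zone 1 and 1404 to 2565 CPM in zone 5, and so did 6 of the 10 astrocyte markers, while 1 of the 10 rose. The astrocyte markers summed to 5226 to 7646 CPM in zone 1 and 4299 to 6006 CPM in zone 5. The 3 precursor markers, 3 of 3 tested fibroblast markers and 2 of 5 endothelial markers also fell, where 13.7% of all genes did. The sums of the 7 neuron markers went the other way. They were 8323 to 14122 CPM in zone 1 (median 9303) and 11751 to 15252 CPM in zone 5 (median 14422). The 6 blood leukocyte markers summed to 23.7 to 66.2 CPM in zone 1 and 0 to 5.68 CPM in uninjured IP, and the 1 of them that could be tested was higher in zone 1 and fell with zone number. The neutrophil genes S100a8 and S100a9 were at 0 in zone 1. The part of these markers in the slopes of Mt1, Mt2, Hmox1 and the other members was not tested, and in bulk libraries fewer cells of a type and less RNA per cell cannot be told apart.

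Among the genes of glutathione synthesis, Slc7a11 fell and Gclm rose with zone number. Slc7a11 encodes xCT, the cystine transporter that brings in the sulfur amino acid for glutathione. It had 74.4, 103, 40.9, 13.5 and 27.6 CPM in zone 1, 25.6, 15.9, 50.1, 13.1 and 31.9 CPM in zone 2 and 6.0, 9.47, 14.5, 25.3 and 16.9 CPM in uninjured IP. In zone 1, 4 of the 5 libraries lay above the highest uninjured one and replicate 4 did not. The difference in zone 1 was 1.73 ± 0.51 (log2, SE, edgeR adjusted p = 0.055), just outside the threshold. It was called by DESeq2 (adjusted p = 0.012), without the filter (0.015), with all cortex IP groups in one edgeR fit (0.0029), and without zone 1 replicate 4 (0.014) or replicate 5 (0.036).

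In zones 3 to 5 Slc7a11 averaged 18.7 ± 6.41 CPM, 21.7 ± 6.07 CPM and 16.6 ± 5.00 CPM, in that order of zones (SD, n = 5 each), close to the 14.4 ± 7.43 CPM of uninjured IP. Its slope was -0.36 ± 0.09 (log2 per zone step, SE, edgeR adjusted p = 0.0019). Without zone 1 the slope was -0.23 and was not called (adjusted p = 0.11).

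Gclm and Gclc encode the modifier and the catalytic subunit of glutamate-cysteine ligase, which makes the first bond of glutathione. Gclm had 17.95, 12.3, 28.9, 15.4 and 44.6 CPM in zone 1, 44.9, 45.2, 55.8, 32.4 and 54.3 CPM in zone 5 and 17.0, 37.9, 27.8, 40.3 and 31.8 CPM in uninjured IP. In zone 1, 4 of the 5 libraries lay below every zone 5 library. Gclm rose with zone number, by 0.23 ± 0.07 (log2 per zone step, SE, edgeR adjusted p = 0.0099), and the call was lost without zone 1 (0.15, adjusted p = 0.14) and without zone 5 (0.28, adjusted p = 0.056).

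Gclc had 48.7, 14.9, 80.5, 21.8 and 41.9 CPM in zone 1, with the widest spread of any cortex group, 39.8, 23.4, 31.2, 18.2 and 30.7 CPM in zone 2 and 38.0, 36.9, 30.3, 34.2 and 46.8 CPM in uninjured IP. Its slope was -0.04 ± 0.07 (edgeR adjusted p = 0.73). The difference between the slopes of the subunits was not tested. The annotation places other genes within the bounds of Gclm, Slc7a11 and Txnrd1, so their counts may hold reads of those genes.

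**Figure D2:**
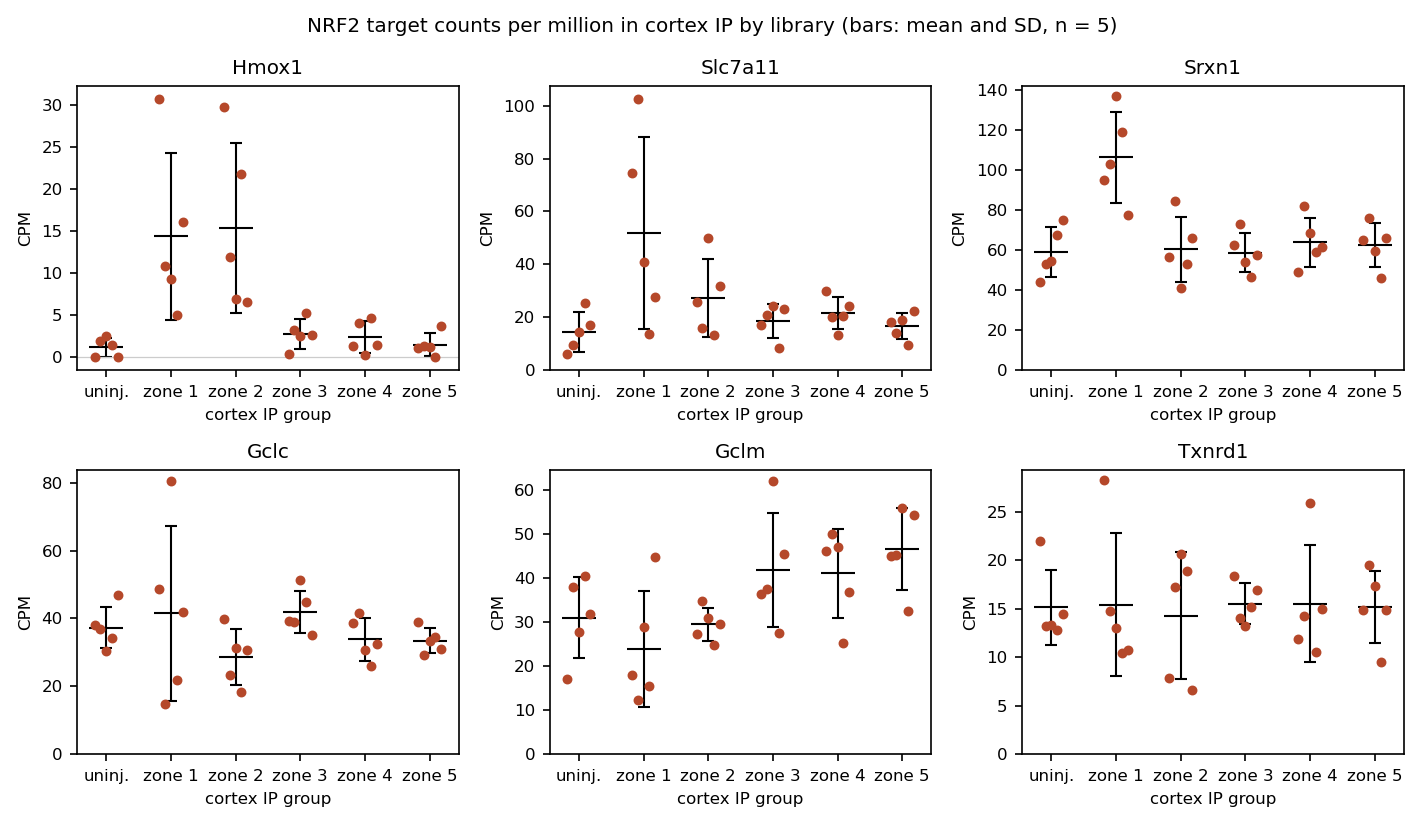
CPM of 6 NRF2 targets (y axis, linear, each panel with its own range) in cortex uninjured IP and IP zones 1 to 5 (x axis); points are libraries, and bars give the mean and SD of 5 libraries. Hmox1 is high in zones 1 and 2, Slc7a11 and Srxn1 are highest in zone 1, Gclm is lowest there, and Gclc and Txnrd1 overlap across groups.

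Srxn1, the sulfiredoxin that restores overoxidised peroxiredoxins, stood apart in zone 1. It had 94.9, 103, 137, 119 and 77.5 CPM in zone 1 and 44.0, 53.0, 54.3, 67.6 and 75.1 CPM in uninjured IP, and the groups did not overlap. The difference was 0.82 ± 0.26 (log2, SE, edgeR adjusted p = 0.082), which was called by DESeq2 (adjusted p = 0.033), in one fit of all cortex IP groups (0.0051) and without zone 1 replicate 5 (0.037). In zones 2 to 5 Srxn1 averaged between 58.6 and 63.8 CPM, the level of uninjured IP at 58.8 ± 12.4 CPM (SD, n = 5). The slope of -0.16 ± 0.05 (log2 per zone step, SE, edgeR adjusted p = 0.015) was -0.01 without zone 1 (adjusted p = 0.94). It was also not called without zone 4 (-0.16, adjusted p = 0.053), without zone 1 replicate 3 (-0.12, 0.078) or without zone 1 replicate 4 (-0.13, 0.053).

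Txnrd1, the cytosolic thioredoxin reductase, had 28.2, 14.7, 13.0, 10.4 and 10.8 CPM in zone 1 and 22.0, 13.3, 13.3, 12.8 and 14.4 CPM in uninjured IP. The groups overlapped, and replicate 1 was the high library in both. Its slope was 0.03 ± 0.08 (edgeR adjusted p = 0.87). Nqo1, a quinone reductase often used as a readout of NRF2, was nearly undetected in the cortex. Zone 1 held 1 Nqo1 count over its 5 libraries and uninjured IP held 7, and the 4 zone 1 libraries at 0 allow between 0.526 and 7.69 CPM. Nqo1 reached the test in none of the IP comparisons.

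In cortex zones 3, 4 and 5 edgeR called none of 8 tested members against uninjured IP, and DESeq2 called none either. At an unadjusted p under 0.05 there were 0 in zone 3, 0 in zone 4 and 1, Gclm, in zone 5. Few genes were called there at all, with 0.0405% of 12356 in zone 3, 0 of 12140 in zone 4 and 0 of 12392 in zone 5 by edgeR. At an unadjusted p under 0.05 there were 832 genes in zone 4 and 694 in zone 5, and DESeq2 called 16 and 0 genes there.

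**Figure D3:**
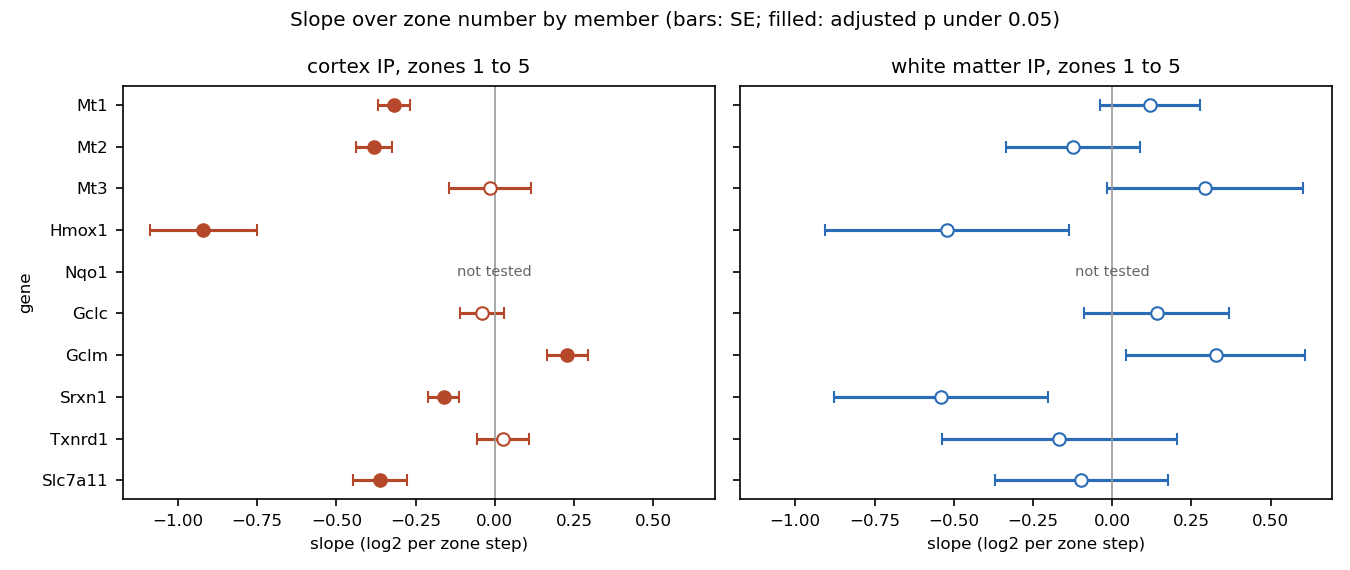
Slope over zones 1 to 5 (x axis, log2 per zone step) for each member (y axis) in cortex IP and in white matter IP, fitted over 25 libraries in each region; bars are SE, and filled points passed an adjusted p under 0.05. In cortex 5 slopes are below 0 and Gclm is above it, and in white matter no slope passed.

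Nfe2l2, which encodes NRF2 itself, was higher in cortex zone 1 at 97.3 ± 39.4 CPM, against 13.5 ± 8.91 CPM in uninjured IP (SD, n = 5 each), a log2 difference of 2.75 ± 0.43 (SE, edgeR adjusted p = 0.00041). It was higher in zone 2 by 1.54 ± 0.32 (adjusted p = 0.0027) and fell by 0.74 per zone step (adjusted p = 4.7e-08). It was the sole call among 13 tested regulators in zone 1, where 5.3% of all genes were called. That list also holds Keap1, small MAF genes and Cul3.

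Of 36 tested NRF2-linked enzymes 2 rose in zone 1 and the other 34 did not pass, a share close to the 5.3% of all genes called there. These were Ftl1, a ferritin light chain that stores iron (log2 1.65 ± 0.29, SE, edgeR adjusted p = 0.0014), and Prdx6, a peroxiredoxin known from astrocytes (1.39 ± 0.30, adjusted p = 0.0078). Along the cortex zones 11 of 40 tested enzymes fell and 3 rose, where 13.7% of all genes fell and 5.9% rose. The median slope of the enzymes was -0.08, against -0.02 over all genes. In zone 1 Slc39a1, a zinc importer of the cell membrane, was the 1 of 18 tested zinc-handling genes that rose (1.78 ± 0.49, adjusted p = 0.038). This call was lost without zone 1 replicate 1 (adjusted p = 0.069), zone 1 replicate 4 (0.068) or any single uninjured library (0.061 to 0.11), whereas those of Nfe2l2, Ftl1 and Prdx6 in zone 1 held under every alternative tried. Along the zones 3 of 19 zinc-handling genes fell and 1 rose, close to the 13.7% and 5.9% of all genes, and Slc39a1 (-0.40 ± 0.08, adjusted p = 0.00042, not called without zone 1, -0.29, 0.066) and the importer Slc39a14 (-0.32 ± 0.07, adjusted p = 0.0004) were among those that fell.

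The cohort in which cortex zones 1 to 3 were taken as one area gave no member call against uninjured tissue. Its 3 IP libraries are set here against the same uninjured IP. They had 46.7, 59.9 and 65.3 CPM of Mt1, 5.84, 5.27 and 1.63 CPM of Hmox1 and 40.4, 55.3 and 56.3 CPM of Srxn1. The Mt1 values lay within the range of uninjured IP, those of Srxn1 within it apart from 40.4 CPM just below, and 2 of the 3 Hmox1 values within the range of zone 1. Slc7a11 had 27.1, 40.2 and 27.7 CPM, above all 5 uninjured IP libraries, a difference of 1.14 ± 0.34 (log2, SE, edgeR adjusted p = 0.24). Without uninjured replicate 4 it was 1.45 and was called (adjusted p = 0.023). The input libraries of that area had 18.5, 33.5 and 38.9 CPM of Slc7a11, against 12.8, 9.66, 8.51, 13.7 and 6.60 CPM in uninjured input, again without overlap, at 1.54 ± 0.60 (adjusted p = 0.98).

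By edgeR 0 of 8 tested members were called in that IP cohort, where 0.232% of 11631 genes were, and 0 of 7 in the input cohort, where 0.0074% of 13515 genes were. In each, Slc7a11 was the 1 member at an unadjusted p under 0.05, and DESeq2 called none.

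In uninjured tissue Mt1 and Mt2 were lower in cortex IP than in white matter IP. Uninjured cortex IP had the levels given above, and uninjured white matter IP had 88.9, 252, 165, 254 and 205 CPM of Mt1 and 114, 126, 117, 350.3 and 137 CPM of Mt2. Cortex minus white matter was -1.73 ± 0.41 for Mt1 (log2, SE, edgeR adjusted p = 0.0053) and -1.96 ± 0.52 for Mt2 (adjusted p = 0.011), and both calls held under every alternative tried. The median over all genes in this comparison was -0.23. Astrocyte markers were also lower in cortex, with 4 of 10 called and a median of -1.09, oligodendrocyte markers were lower (6 of 6, median -5.00) and neuron markers higher (7 of 7, median 2.86); their part in the result was not tested.

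Srxn1 went the other way. It had 58.8 ± 12.4 CPM in uninjured cortex IP and 10.3 ± 13.0 CPM in uninjured white matter IP (SD, n = 5 each), and 4 of the 5 white matter libraries were at or below 12.3 CPM while replicate 5 had 32.2. The difference was 2.01 ± 0.71 (edgeR adjusted p = 0.046). This call was lost in 9 of 10 runs that each left out a library, with adjusted p between 0.061 and 0.094. It held without white matter replicate 5, where the difference was 3.13 (adjusted p = 0.0017). These 3 were the members called of 8 tested between the regions, where 27.5% of 11815 genes were called.

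Some other genes of the pathway were called between the uninjured regions. Fth1, the ferritin heavy chain, had 635 ± 78.0 CPM in cortex IP and 4942 ± 1854 CPM in white matter IP (SD, n = 5 each; log2 -3.49 ± 0.26, SE, edgeR adjusted p = 1.3e-07). Fth1 and Ftl1 have near-identical copies in the genome among which counting could split their reads. Nfe2l2 was lower in cortex, with a log2 difference of -2.53 ± 0.55 (edgeR adjusted p = 0.0027), and so was Prdx6 (-1.93 ± 0.41, adjusted p = 0.0025). Slc30a3, the zinc transporter of synaptic vesicles, was higher in cortex by 3.84 ± 0.84 (adjusted p = 0.0029). Of 33 tested NRF2-linked enzymes 8 were lower in cortex and 1 was higher, with a median of -0.71, and the share called was close to the 27.5% of all genes.

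No member was called in white matter in any of the 10 comparisons within that region. These held 82 member tests by edgeR, of which 1 had an unadjusted p under 0.05, and DESeq2 called 1; both were Srxn1 in zone 2. The background was low as well, at 0.45% of 10438 genes in zone 1, 0.941% of 10522 in zone 2, 0 of 9220 in zone 3, 0.0666% of 10508 in zone 4 and 0 of 10195 in zone 5. It was 0.0333% of 12017 genes for the IP of zones 1 to 3 as one area, 0.055% of 14556 for their input and 1.93% of 13768 for the slope over zones. For IP against input it was 0.603% of 11950 genes in uninjured tissue and 0 of 11689 in stroke zones 1 to 3. Where edgeR called no gene, 1054 genes in zone 3, 931 in zone 5 and 777 between IP and input had an unadjusted p under 0.05, and DESeq2 called 110, 22 and 134.

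Mt1 had 490.0, 295, 188, 324 and 68.9 CPM in white matter zone 1 and 227, 337, 238, 537 and 409 CPM in zone 2. In zone 3 it had 37.8, 479, 276, 669 and 189.9 CPM. It had 329, 437, 64.8, 400.1 and 350.4 CPM in zone 4 and 207, 211, 439.8, 284 and 268 CPM in zone 5. Each group held libraries above the uninjured maximum of 254 CPM, and zones 1, 3 and 4 also held a library below the uninjured minimum of 88.9 CPM. Zone 1 minus uninjured was 0.64 ± 0.63 (log2, SE, edgeR adjusted p = 0.71), and it turned to -0.26 without the shallow zone 1 replicate 1.

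Mt2 had 294, 248, 415, 451 and 28.6 CPM in white matter zone 1, 133, 299.5, 411, 402 and 466 CPM in zone 3 and 343, 143, 0, 326 and 189 CPM in zone 5. The 0 is the shallow zone 5 replicate 3, which held 440 CPM of Mt1 and whose depth allows up to 1.51 CPM of Mt2. Zone 1 minus uninjured was 0.69 ± 0.65 (log2, SE, edgeR adjusted p = 0.69) and zone 2 minus uninjured 0.37 ± 0.42 (adjusted p = 0.75). Over white matter zones the slope was 0.12 ± 0.16 for Mt1 (adjusted p = 0.92) and -0.12 ± 0.21 for Mt2 (adjusted p = 0.96), with larger standard errors than those of the cortex slopes. The difference between the slopes of the regions was not tested.

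The other members varied from library to library in white matter. Hmox1 had 0, 15.4, 1.08, 20.3 and 18.03 CPM in zone 1 and 0, 0.632, 1.15, 0 and 13.9 CPM in uninjured IP, and it did not pass the filter on low counts. In zone 1, 3 libraries were high and 2 low, and uninjured replicate 5, at 13.9 CPM, lay just below the high ones. Srxn1 had 11.6, 21.4, 429, 46.0 and 53.9 CPM in zone 2 and 2.22, 1.90, 12.3, 2.94 and 32.2 CPM in uninjured IP, and replicate 3 of zone 2 stood far above the rest of its group. That difference was 3.28 ± 0.99 (log2, SE, edgeR adjusted p = 0.11), and it was called by DESeq2 (adjusted p = 0.0085) and without the filter (0.0014).

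Microglia and macrophage markers summed to 599 to 3110 CPM in white matter zone 1, 694 to 1631 CPM in zone 2 and 151 to 267 CPM in uninjured IP. Neuron markers summed to 474 to 12223 CPM in zone 1 and 614 to 1733 CPM in uninjured IP. Within white matter zone 1 the libraries thus differed widely in marker genes, and the part of this in the spread of the members was not tested.

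Tested directly, the responses of the regions passed edgeR's test of a difference for 0 of 9 members in zone 1, where 1.88% of 14601 genes did, and for 0 of 9 in zone 2, where 2.75% of 13673 genes did. At an unadjusted p under 0.05 there were 0 members in zone 1 and 1, Srxn1, in zone 2, and DESeq2 called 0 in zone 1 and Srxn1 in zone 2. For Hmox1 the cortex response minus the white matter response was 1.94 ± 1.82 in zone 1 (log2, SE, adjusted p = 0.63) and 3.32 ± 1.81 in zone 2 (adjusted p = 0.36). For Srxn1 in zone 2 it was -3.24 ± 1.06 (adjusted p = 0.094). It was called without white matter zone 2 replicate 1 (-3.54, adjusted p = 0.047) and without white matter uninjured replicate 5 (-4.35, adjusted p = 0.023). The Hmox1 call in cortex is not shown to be particular to the cortex.

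Between the cortex fractions, Srxn1 was the member enriched in IP. In uninjured cortex it had 44.0, 53.0, 54.3, 67.6 and 75.1 CPM in IP and 6.42, 23.2, 9.29, 17.1 and 5.4 CPM in input, without overlap. The difference was 1.89 ± 0.40 (log2, SE, edgeR adjusted p = 0.0027), and it held under every alternative tried. It was the 1 member called of 7 tested, where 25.3% of 11280 genes were called, and the median was 0.14 over the members and -0.11 over all genes.

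In the stroke cortex of zones 1 to 3, Srxn1 had 40.4, 55.3 and 56.3 CPM in IP and 12.8, 22.6 and 23.0 CPM in input, again without overlap. The difference was 1.15 ± 0.39 (edgeR adjusted p = 0.043), 1 call among 8 members tested with a background of 28.5% of 11476 genes. With 3 libraries a side the call was lost in 5 of 6 runs that left out a library. The adjusted p was 0.080 without IP replicate 1, 0.15 without IP replicate 2 and 0.15 without IP replicate 3. It was 0.10 without input replicate 1 and 0.068 without input replicate 3.

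Srxn1 was not called between the fractions of white matter. Uninjured white matter had 10.3 ± 13.0 CPM in IP and 7.22 ± 5.11 CPM in input (SD, n = 5 each), a log2 difference of 0.90 ± 1.05 (SE, edgeR adjusted p = 0.8). Stroke zones 1 to 3 had 21.8, 12.1 and 0 CPM in IP and 1.24, 50.3 and 5.72 CPM in input, a difference of -0.74 ± 1.84 (adjusted p = 0.97), and the fractions overlapped in both cohorts. Whether the fractions differ more in cortex than in white matter was not tested.

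Mt1 did not pass the test between IP and input in any cohort. In uninjured cortex it had 84.6 ± 55.7 CPM in IP and 64.2 ± 24.1 CPM in input (SD, n = 5 each), a log2 difference of 0.03 ± 0.37 (edgeR adjusted p = 0.96) that changed sign under 7 of 14 alternatives. In stroke cortex it had 46.7, 59.9 and 65.3 CPM in IP and 47.6, 91.2 and 86.3 CPM in input (-0.64 ± 0.32, adjusted p = 0.16). In uninjured white matter it had 193 ± 68.9 CPM in IP and 297 ± 89.7 CPM in input (-0.20 ± 0.31, adjusted p = 0.87). In stroke white matter it had 256 ± 141 CPM in IP and 415 ± 88.8 CPM in input (-0.54 ± 0.52, edgeR adjusted p = 0.90). IP and input overlapped in each case.

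Mt2 leaned toward IP in cortex. Uninjured cortex IP had 34.0, 36.0, 29.7, 170.4 and 46.8 CPM and input 6.42, 22.7, 37.1, 30.8 and 16.8 CPM, a difference of 1.14 ± 0.49 (log2, SE, edgeR adjusted p = 0.094). It was called without the filter (1.26, adjusted p = 0.012), and without IP replicate 4 it was 0.36 (adjusted p = 0.61). In stroke cortex IP had 45.1, 51.3 and 64.4 CPM and input 14.7, 28.4 and 41.6 CPM, without overlap (0.71 ± 0.39, adjusted p = 0.2). In uninjured white matter it leaned the other way, with 169 ± 102 CPM in IP and 297 ± 80.6 CPM in input (-0.37 ± 0.34, adjusted p = 0.72). Stroke white matter IP had 238 to 276 CPM and input 282 to 438 CPM, without overlap (-0.30 ± 0.50, edgeR adjusted p = 0.94). 

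Within a library the scaling cancels in the ratio of Mt2 to Mt1 counts. Its median was 0.671 in uninjured cortex IP and 0.338 in input, and 0.966 in stroke cortex IP and 0.312 in input, so both cortex cohorts had the larger ratio in IP. In white matter the cohorts differed in direction, with 0.705 in uninjured IP and 1.03 in uninjured input, and 1.10 in stroke IP and 0.860 in stroke input. These ratios are a description without a test, and the Mt2 counts include any reads of Gm45774.

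Mt3 was barely present in cortex input. The 5 uninjured input libraries held 10 Mt3 counts in all and the 5 uninjured IP libraries 92, which gave 8.0, 3.79, 3.16, 11.1 and 14.9 CPM in IP and 0, 1.45, 0.774, 3.42 and 0 CPM in input. The groups overlapped only between IP replicate 3 and input replicate 4, and the gene did not pass the filter on low counts. In the stroke cohort it had 9.56, 9.22 and 12.2 CPM in IP and 0, 3.35 and 2.21 CPM in input, without overlap, at 2.37 ± 0.96 (log2, SE, edgeR adjusted p = 0.083), and it was called without input replicate 2 (3.15, adjusted p = 0.020). In uninjured white matter the difference was 1.16 ± 0.99 (adjusted p = 0.71).

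**Figure D4:**
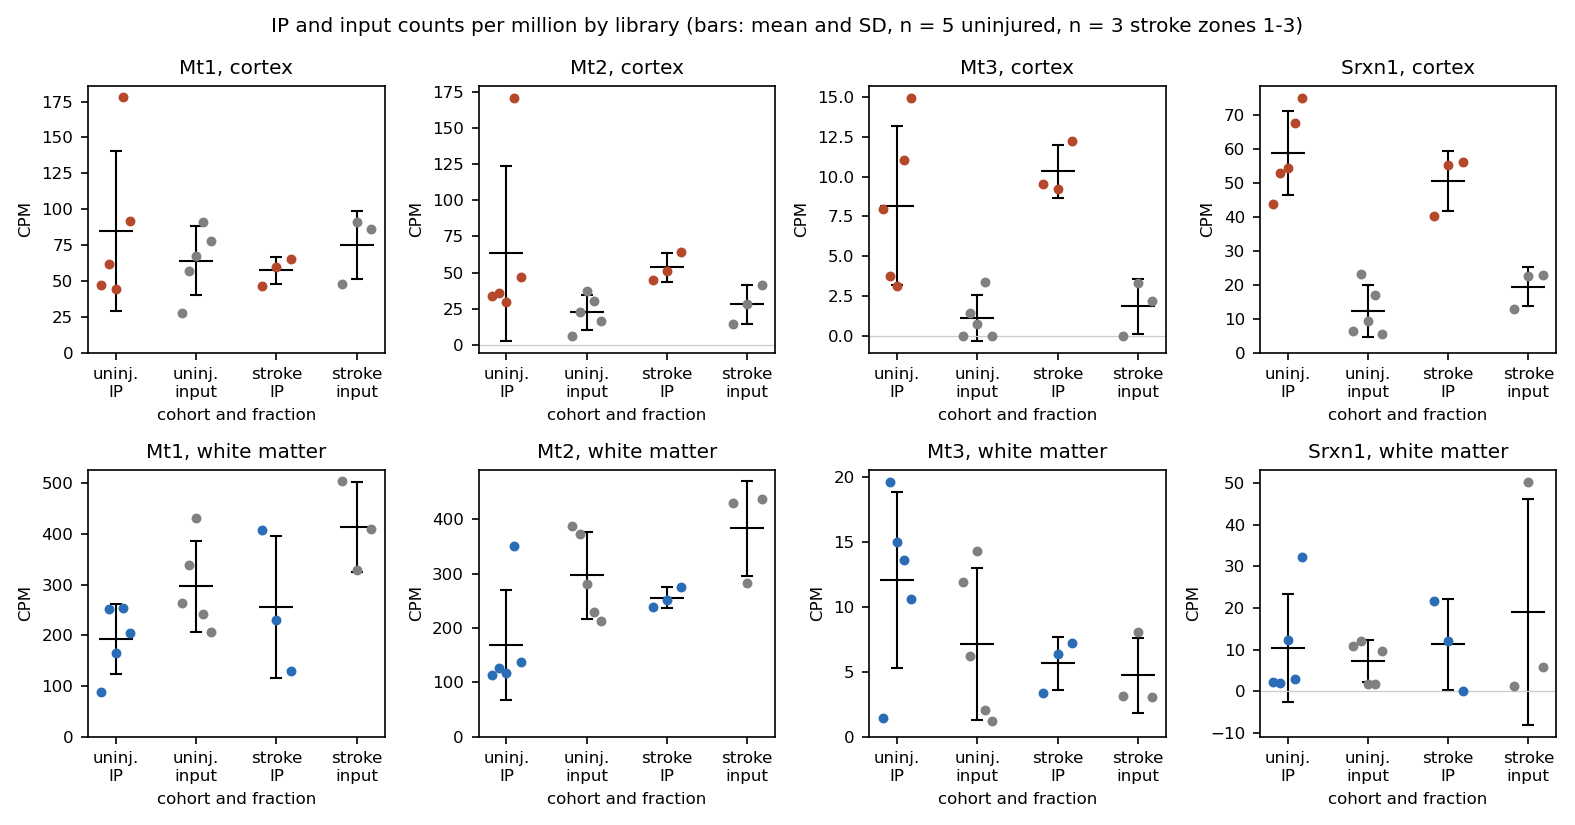
CPM of Mt1, Mt2, Mt3 and Srxn1 (y axis, linear, each panel with its own range) in IP and input of the uninjured and the stroke zones 1 to 3 cohorts (x axis), with cortex in the upper and white matter in the lower row; points are libraries, coloured for IP and grey for input, and bars give the mean and SD (5 uninjured, 3 stroke). Srxn1 in cortex lies at 40.4 CPM or more in every IP library and at 23.2 CPM or less in every input library, whereas IP and input of Mt1 overlap in every cohort.

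Of 12 tested regulators of NRF2, 4 were higher in IP than in input in uninjured cortex and 1 was lower, where 25.3% of all genes were called in either direction. Keap1 had 20.6 ± 3.69 CPM in IP and 3.39 ± 2.40 CPM in input (SD, n = 5 each; log2 2.26 ± 0.64, SE, edgeR adjusted p = 0.015). Sqstm1, the autophagy receptor that binds KEAP1, was higher in IP by 1.21 ± 0.33 (adjusted p = 0.011), and Nfe2l1, an NRF2 relative, by 1.19 ± 0.34 (adjusted p = 0.015). Catalase (Cat), which breaks down hydrogen peroxide, was lower in IP, with a log2 difference of -2.83 ± 0.36 (adjusted p = 4.8e-05) and in the stroke cohort of -2.50 ± 0.37 (adjusted p = 0.00065).

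Per length of annotated exons, Mt2 and Mt1 were the most abundant members, while Mt3 was lower. The annotated length was 1246 bases for Mt1, its whole span, and 588 bases for Mt2, whose counts include any reads of Gm45774. Before division by length Mt1 had the higher mean, with 139 against 97.4 CPM in cortex zone 1 IP. In uninjured cortex IP it had 84.6 against 63.4 CPM. The order of Mt2 over Mt1 per kilobase in these groups thus rests on the annotated lengths. In cortex zone 1 IP Mt2 averaged 165.7 and Mt1 111.5 CPM per kilobase, followed by Srxn1 at 37.7, Gclc at 11.0, Hmox1 at 8.22 and Mt3 at 7.15, with Gclm, Slc7a11, Txnrd1 and Nqo1 below. In uninjured cortex IP the order was Mt2 at 107.8 ± 102.4, Mt1 at 67.9 ± 44.7, Srxn1 at 20.9 ± 4.41, Gclc at 9.89 ± 1.62, Mt3 at 7.68 ± 4.65, Gclm at 4.92 ± 1.47, Txnrd1 at 2.14 ± 0.547, Slc7a11 at 1.04 ± 0.534, Nqo1 at 0.709 ± 1.10 and Hmox1 at 0.674 ± 0.651 CPM per kilobase (SD, n = 5). Neighbours in that order whose means lie within an SD of each other were Mt2 and Mt1, Gclc and Mt3, Mt3 and Gclm, Slc7a11 and Nqo1, and Nqo1 and Hmox1. Hmox1 was the last of the 10 in uninjured cortex IP and the fifth in zone 1. In zone 1 its mean (8.22 ± 5.70) lay within its SD of those of Gclc (11.04 ± 6.855), Mt3 (7.15 ± 6.23), Gclm (3.79 ± 2.10) and Slc7a11 (3.72 ± 2.61). Its place among these is not settled.

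Over the 30 cortex IP libraries of zones and uninjured tissue, the log2 levels most like those of Mt1 among 9596 genes were those of Pea15a, a phosphoprotein known from astrocytes (Pearson r = 0.80), Gm26778 (0.78), Dbi, the diazepam binding inhibitor (0.78), the lipid carrier Apoe (0.77) and the chloride channel protein Clic4 (0.76). For Mt2 the overlapping Gm45774 came first (0.98), followed by Dbi (0.80), the elongation factor Eef2 (0.79), the astrocyte glutamate transporter Slc1a3 (0.78) and the fatty acid elongase Elovl5 (0.77). Mt1 and Mt2 themselves had a Pearson r of 0.73, and Mt1 and Mt3 of -0.05. These points share zones, depth and cell mixture, so the correlations are descriptions. Mt3 lay below the minimum mean of 10 CPM set for this search.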

How the data were processed

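The deposited table holds whole-number counts of reads per gene for 82 libraries, and the submitters' processing notes name the build GRCm38, also called mm10. Which aligner and counter were run, with what strand setting or filter, is not given in the sources used here. Levels are counts per 1000000 (CPM) over the counts outside mt-Rnr1, mt-Rnr2, Gm42418, CT010467.1, Gm23935 and Lars2, which left a median of 2487444.5 counts of a median total of 16979389.5, so low members rest on few counts. Floors (3 counts) cover counting error only, whereas the SD and SE values include the spread between libraries.

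Counts were tested with edgeR 4.0.16 (R 4.3.3; TMM scaling over the remaining genes, quasi-likelihood test, robust) after a filter of 10 counts in enough libraries and 15 in all. Each comparison used its own groups, the slope used zone number over 25 libraries, and p-values were adjusted over all genes tested by Benjamini-Hochberg at 0.05. Standard errors were derived from the fold change and F. Alternatives were DESeq2 1.42.0, its size factors, no filter, one fit per region, a replicate block, leaving out shallow libraries and leaving out each library; leaving out each zone was added after seeing the data. The code was checked on simulated data.

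Replicate numbers are shared between groups, but nothing in the labels ties them to an animal, and they were not used as pairs; if libraries of several zones came from one animal, the slopes treat them as independent. No 2 libraries of a group agreed within sampling noise. All 10 members are named; of the pathway lists, at most 6 called genes per comparison by lowest adjusted p, and the 5 genes most like each metallothionein. The members and lists were chosen with earlier results of these data known. Promoter windows came from RefSeq (GRCm38.p6) and positions from GENCODE vM21.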

Additional observations from a re-analysis of the deposited data

Results flagged for a closer look

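In 18 of 104 groups of 5 libraries with at least 100 counts of a member, 1 library stood apart from the other 4 by Dixon's criterion, which chance alone passes in about 1 of 20 groups. The groups share libraries, so these are not independent.

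Uninjured cortex IP replicate 4 had 170.4 CPM of Mt2, above the rest of its group, and the Mt2 differences of zones 1 and 2 from uninjured tissue were called without it. Uninjured white matter IP replicate 4 likewise had 350.3 CPM of Mt2. Cortex zone 2 replicate 5 had 47.8 CPM of Mt2, below the others, and cortex zone 4 replicate 3 had 55.3 CPM of Mt1, also below.

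White matter zone 4 replicate 3 stood apart for 3 genes, with 64.8 CPM of Mt1 below its group and with 192 CPM of Gclc and 170.1 CPM of Srxn1 above it. White matter zone 2 replicate 3 had 429 CPM of Srxn1. Uninjured white matter IP replicate 3 had 72.3 CPM of Gclc, white matter zone 1 replicate 3 had 84.5 CPM of Slc7a11, and uninjured white matter input replicate 2 had 6.60 CPM of Gclm. Mt3 reached 42.9 CPM in white matter zone 4 replicate 1 and 111 CPM in white matter zone 5 replicate 4.

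For Txnrd1 such a library was found in 5 groups, with 28.2 CPM in cortex zone 1 replicate 1, 25.8 CPM in cortex zone 4 replicate 3, 58.2 CPM in white matter zone 2 replicate 1, 44.8 CPM in white matter zone 4 replicate 4 and 22.0 CPM in uninjured cortex IP replicate 1.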

How the results depend on the processing

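The number of members called moved in 9 of 23 comparisons, and 7 of 13 called member estimates kept their call under every alternative run. In cortex zone 1 the 1 call became 2 without the filter, 3 with DESeq2, 3 in one fit of all cortex IP groups, 0 with the replicate block and 0 without shallow libraries, and leaving out 1 library gave 0 to 3. It became 1 to 2 in cortex zone 2 when 1 library was left out, and 0 to 2 for IP against input in cortex zones 1 to 3. The IP of cortex zones 1 to 3 had 0 calls but 1 with the replicate block (Slc7a11, 1.67, adjusted p = 0.026) and 0 to 1 with 1 library left out, uninjured cortex IP against input had 1 but 2 without the filter, and the cortex slopes had 6 but 3 without zone 1. White matter zone 2 had 0 but 1 without the filter and 1 with DESeq2; the difference between regions had 0 but 1 without the filter in zone 1, 1 with DESeq2 in zone 2, and 0 to 1 in zone 2 with 1 library left out. Of 32 calls of other pathway genes 22 held under every alternative, and the Txn2 white matter slope turned to -0.11 without shallow libraries and -0.026 without zone 5 (-0.038 to 1.63 with 1 library left out). Signs turned for 7 uncalled member estimates: Mt1 between uninjured cortex IP and input (-0.023 with DESeq2, -0.019 with its size factors, -0.055 with the replicate block, -0.44 to 0.26 with 1 library left out), Mt2 in cortex zone 5 (-0.97 to 0.018), the Mt3 cortex slope (0.0067 with the replicate block, 0.053 without shallow libraries, -0.064 to 0.053 with 1 library left out), Mt1 in white matter zone 1 (-0.26 to 0.89), the Mt1 white matter slope (-0.0091 without shallow libraries, -0.085 to 0.27), the Mt2 white matter slope (0.069 without zone 5) and the Hmox1 difference between regions in zone 1 (-0.98 to 2.41). With the replicate block the Hmox1 call in cortex zone 1 was lost (3.30, adjusted p = 0.082), while the 6 cortex slopes kept theirs; genes called fell to 6 for the white matter slope. Every same-numbered pair correlated over 0.1 in 0 of 19 comparisons and in 0 of 10 pairs of zones in either region, so the numbers pair no samples by that criterion. As a hint from the data, 23 of 25 cortex zone libraries and 15 of 25 in white matter correlated best with their own number (median 0.082 and 0.045, against -0.020 and -0.0064 for other numbers). Genes called overall ran from 430 to 2459 in cortex zone 1 (664 in the report), 310 to 700 in zone 2 (426), 1728 to 4316 for the cortex slope (2964), 2232 to 7838 for uninjured cortex IP against input (2858), 1515 to 4953 in stroke cortex (3269), 5 to 589 in white matter zone 1 (47), 0 to 591 in white matter zone 2 (99) and 0 to 3386 for the white matter slope (266). The cause was not tested. Depth limits Hmox1, Nqo1 and Mt3, which held few or no counts in many libraries.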

Other observations

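Other genes of the pathways are given here as values. Along the white matter zones 2 of 39 tested NRF2-linked enzymes rose and none fell, where 1.93% of all genes were called in either direction. These were Txn2, the mitochondrial thioredoxin (1.48 ± 0.36 log2 per zone step, SE, edgeR adjusted p = 0.033), and Idh1, which makes cytosolic NADPH (1.07 ± 0.30, adjusted p = 0.049). Both calls were lost without the shallow zone 5 replicate 3, when the slope was -0.038 for Txn2 (adjusted p = 0.996) and 0.63 for Idh1 (adjusted p = 0.72), and neither was called without zone 1, zone 2, zone 3 or zone 5 or without zone 1 replicate 1. The Idh1 call was lost in most runs that left out a library. Between the uninjured regions the pentose phosphate enzyme Tkt was lower in cortex IP than in white matter IP (-2.07 ± 0.37, adjusted p = 0.00057), and the zinc importer Slc39a10 was higher (1.53 ± 0.31, adjusted p = 0.0015). Gsk3b, a kinase that favours the breakdown of NRF2, rose with cortex zone number by 0.13 ± 0.03 per zone step (adjusted p = 0.0013), while Nfe2l2 fell. In stroke cortex zones 1 to 3 the mitochondrial superoxide dismutase Sod2 was lower in IP than in input (-0.99 ± 0.28, adjusted p = 0.021; not called without IP replicate 1, 0.097, replicate 2, 0.10, or replicate 3, 0.097), and so was Cul3, the scaffold of the ligase that tags NRF2 (-1.33 ± 0.29, adjusted p = 0.0056).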
